A study of Homo sapiens with 8 samples.

Results

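The ERBB and MET receptors and their ligands were followed as 8 genes in nascent RNA from 2 human colorectal cancer cell lines, DLD-1 and HCT116. The members were the 4 receptor genes EGFR, ERBB2, ERBB3 and MET and the 4 ligand genes AREG, EREG, TGFA and HBEGF, taken by symbol from the 18638 gene models of both count tables, and each was found in all 8 libraries and was tested in both lines. The RNA had been isolated by factory-seq, in which nuclei are treated with DNase and caspases so that RNA still held at sites of transcription is released. The method is meant to read transcription rather than stored mRNA, and how much stored mRNA these libraries hold was not tested. The DLD-1 cells (DLD-1-mAID-mClover-POLR2A with Tet-OsTIR1) carry an auxin-inducible degron on POLR2A, the largest subunit of RNA polymerase II, with OsTIR1, the plant protein that marks the tagged protein for destruction, under a doxycycline-inducible promoter. They were compared as untreated control and after 14 h of auxin (n = 2 libraries per group). HCT116 cells with the same degron on TOP2A (TOP2A-mAID, untreated control) were compared with a group that lacks TOP2B as well (TOP2B-/- TOP2A-mAID, n = 2 libraries per group). The labels of that group conflict, since its titles read as control while its treatment field and the names of its count columns read as auxin, so an effect of genotype and one of auxin, at 500 µM for 14 h after 24 h of doxycycline, cannot be told apart. All titles describe asynchronous cells. Sorting for G1 is mentioned in general terms for the treated cells, and the sources used here do not say whether it was used for these libraries, whether the controls had doxycycline or whether a line is 1 clone. Nothing in the labels says that the replicates came from separate cultures, so p-values measure the spread between these libraries, which may be technical.

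EGFR, ERBB2 and ERBB3 are receptor tyrosine kinases that signal as pairs. Amphiregulin (AREG), epiregulin (EREG), transforming growth factor alpha (TGFA) and heparin-binding EGF-like growth factor (HBEGF) are made as membrane precursors, are shed by proteases and bind EGFR. ERBB2 has no known soluble ligand and ERBB3 has little kinase activity of its own, so both act mainly as partners. MET is the receptor of hepatocyte growth factor (HGF) and shares with EGFR the adaptors that lead to the RAS-ERK and PI3K-AKT cascades. In intestinal epithelium this signalling drives growth and renewal, and AREG and EREG are known as markers of colorectal tumours that depend on EGFR.

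Depth and background differed between the libraries. Total counts were 10739622 to 14183633 in the auxin libraries, 36906755 to 62626875 in the DLD-1 controls and 32129400 to 36491540 in HCT116. A background density was taken from 3111 genes that were silent in the other line, and reads at this density accounted for 39.5% and 59.5% of the counts in the auxin libraries, 2.24% and 9.02% in the DLD-1 controls and 0.266% to 3.04% in HCT116. Epithelial markers were present in both lines (EPCAM at 578 to 891 CPM in DLD-1 and 108 to 142 CPM in HCT116, where CPM are counts relative to the scaled library total), whereas LGALS4 and CDX1 were at or under 1.15 CPM in the controls of both and KRT20, CDH17 and VIL1 at or under 3.75 CPM in HCT116. After auxin 3 of the 10 epithelial markers were called lower and 1 higher in DLD-1 by edgeR. This stands beside 35.0% lower and 32.2% higher over all genes tested. The lower ones were CDX2, from 78.5 and 71.5 to 7.66 and 5.45 CPM (log2 fold change -3.51, edgeR adjusted p = 0.00421), KRT18 (-1.72, adjusted p = 0.0106) and CDH17 (-0.96, adjusted p = 0.0271). Their part in the values of the receptors and ligands was not tested. With background subtracted CDX2 alone of these was called lower and 4 of 8 tested markers, EPCAM among them, were called higher. Over all genes tested 32.1% were then called lower and 27.7% higher. Among 11 markers of mesenchymal, endothelial and blood cells, 10 were called higher after auxin in DLD-1, with a summed level of 22.4 to 49.0 CPM in the controls and 230 to 237 after auxin. Only PECAM1 (4.81 and 2.49 times) and CD68 (9.03 and 4.77 times) were over 2 times the density of silent genes in both auxin libraries, and with background subtracted 4 of 6 tested were called higher and 1 lower. In HCT116 0 of 9 tested were called by edgeR (2 at an unadjusted p under 0.05), where 3.41% of all 15273 genes tested were called (3492 at an unadjusted p under 0.05). Of the targeted genes, POLR2A, whose protein and not RNA the degron removes, read 281 and 180 CPM in the DLD-1 controls and 159 and 108 after auxin (log2 fold change -0.78, edgeR adjusted p = 0.0773). TOP2A, tagged in the same way, was at 642 and 704 CPM in the HCT116 controls and 634 in both TOP2B-/- libraries. TOP2B fell by 0.50 on the log2 scale in the TOP2B-/- libraries (edgeR adjusted p = 0.0269), where it still read 135 and 132 CPM against 186 and 192, and counting over the gene body does not show which part of the gene is disrupted.

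Reads were counted over whole gene models, introns included, in hg38 coordinates. On chromosome 7, EGFR lies at chr7:55019032-55207338 and MET at chr7:116672405-116798386, both on the + strand. ERBB2 (chr17:39688084-39728662) and ERBB3 (chr12:56080025-56103507) are also on the + strand, and HBEGF (chr5:140332843-140346603) is on the - strand. TGFA (chr2:70447280-70554015, - strand) was counted over 92480 bp of its span of 106736 bp. AREG (chr4:74445098-74455009) and EREG (chr4:74365143-74388760) lie 56338 bp apart on chromosome 4 in the same orientation, next to the ligand gene EPGN (epigen), and their nascent RNA moved together in HCT116. Their upstream sequences are therefore shown first. Promoters were available from RefSeq (GRCh38.p14, the genome release of the deposited counts) for 7 of the 8 members, as the 250 bases before the annotated start site. This site need not be the start of the counted model. Its offset along the strand, positive inside the model, was 38 bases in AREG, 2 in EREG, 10 in ERBB2 and 189 in TGFA. The offset was 0 in HBEGF and EPGN, -15 in EGFR and -209 in MET. In the sequences of the 3 clustered ligand genes, capitals mark every match to 1 of 6 motifs searched on both strands: the cyclic AMP response element TGACGTCA, the AP-1 site TGANTCA, the TATA box TATAAA, the GC box GGGCGG, the CCAAT box CCAAT and the E-box CACGTG. The motifs do not overlap one another in these windows.
AREG (chr4:74444886-74445135, + strand): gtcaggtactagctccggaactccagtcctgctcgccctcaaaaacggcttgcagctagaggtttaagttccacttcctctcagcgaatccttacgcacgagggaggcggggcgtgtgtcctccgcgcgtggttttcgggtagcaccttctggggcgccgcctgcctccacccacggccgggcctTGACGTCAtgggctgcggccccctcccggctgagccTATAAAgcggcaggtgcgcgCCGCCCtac
EREG (chr4:74364895-74365144, + strand): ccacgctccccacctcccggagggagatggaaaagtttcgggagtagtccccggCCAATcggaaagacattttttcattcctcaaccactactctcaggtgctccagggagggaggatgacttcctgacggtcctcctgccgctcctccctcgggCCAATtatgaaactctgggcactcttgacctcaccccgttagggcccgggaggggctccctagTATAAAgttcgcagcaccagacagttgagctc
EPGN (chr4:74308220-74308469, + strand): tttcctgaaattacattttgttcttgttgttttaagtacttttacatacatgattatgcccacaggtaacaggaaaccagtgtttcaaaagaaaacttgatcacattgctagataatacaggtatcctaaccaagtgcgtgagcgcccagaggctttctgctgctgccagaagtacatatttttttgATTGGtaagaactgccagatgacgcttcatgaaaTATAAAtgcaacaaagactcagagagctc
All 3 windows hold a TATA box, which begins 29 bases before the start site in AREG, 32 in EREG and 29 in EPGN. Among the 7 members with a promoter, which leaves out ERBB3, the AREG window alone holds the cyclic AMP response element, 65 bases before the start site. Of 35116 promoter windows of this length, 1.65% held that element, 10.7% a TATA box, 42.6% a GC box, 32.0% a CCAAT box, 6.57% an AP-1 site and 6.345% an E-box. No TATA box was found in the windows of EGFR, ERBB2, MET, TGFA and HBEGF. GC boxes were found in those of EGFR, MET, TGFA and HBEGF, with 5 in HBEGF, and an AP-1 site in that of ERBB2 at 222 bases before the start site. A match describes the letters in this window only.

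In the DLD-1 controls the ligand pair on chromosome 4 stood highest among the 8 genes when CPM were divided by the counted length in kb. EREG averaged 34.6 ± 4.36 CPM per kb (SD, n = 2) and AREG 23.9 ± 1.34, followed by the receptors ERBB3 with 10.1 ± 2.06 and ERBB2 with 7.33 ± 1.20. EGFR (4.28 ± 0.660) and TGFA (3.71 ± 0.293) overlapped in their ranges, and MET (3.06 ± 0.273) and HBEGF (0.837 ± 0.0200) came last. The ranges of all other neighbours in this order did not overlap. The order of the receptors was different in the HCT116 controls. EREG (13.3 ± 0.998 CPM per kb) and AREG (11.3 ± 1.31) again led, but MET (5.89 ± 0.0595) and EGFR (3.23 ± 0.0883) stood above ERBB3 (2.62 ± 0.151) and ERBB2 (2.14 ± 0.179). HBEGF was at 1.20 ± 0.145 and TGFA at 1.05 ± 0.0267, and no neighbours in this order overlapped. The tables of the lines were scaled separately, so values between lines stand side by side without a test. Among all genes tested in a line, EREG ranked between the 97.4th and the 99.5th percentile of CPM per kb in all 8 libraries, and AREG between the 95.9th and the 99.2nd.

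**Figure D1:**
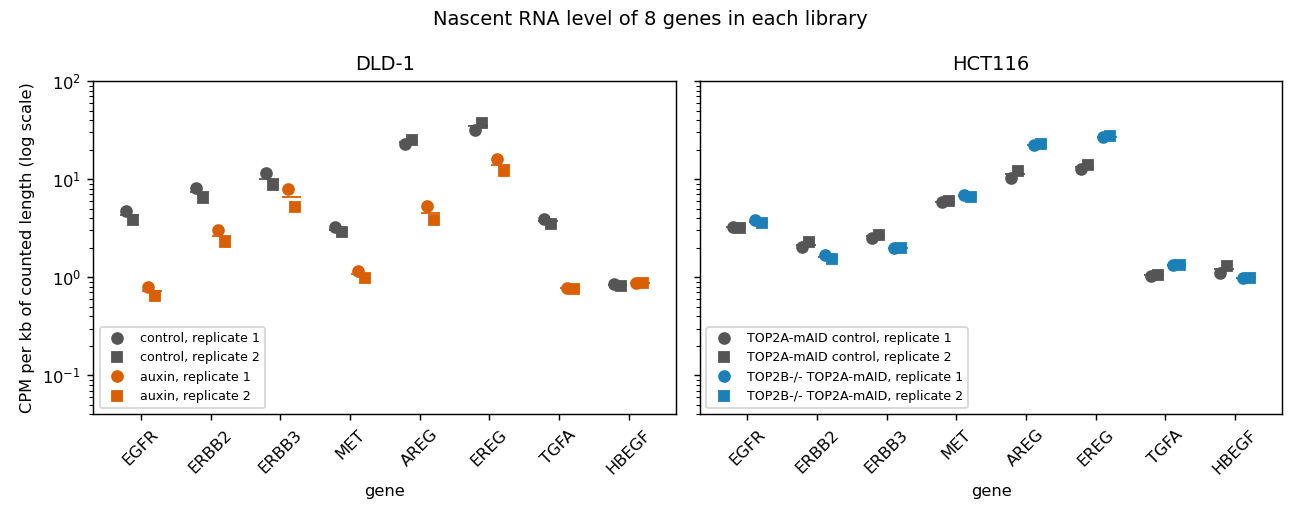
Nascent RNA level of the 8 genes in each library, in CPM per kb of counted length on a log axis, for DLD-1 (left) and HCT116 (right). Circles and squares are replicates 1 and 2 and short lines are group means. In DLD-1 the auxin libraries lie below the controls for every gene but HBEGF, and in HCT116 the largest distance between groups is that of AREG and EREG.

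In DLD-1 cells, auxin treatment was accompanied by lower nascent RNA of 6 of the 8 genes and by a higher level of none, by the quasi-likelihood test of edgeR at an adjusted p of 0.05. In this comparison 67.3% of 17625 genes tested were called. Lower calls made up 35.0% and higher calls 32.2% of all genes tested. The receptor EGFR, AREG and TGFA fell most, and ERBB3 and HBEGF were not called. The median log2 fold change of the 8 genes was -1.49, against -0.06 over all genes tested. With background subtracted, as described below, these medians were -0.55 and -0.16. In these bulk samples, fewer cells transcribing a gene and less RNA per cell cannot be told apart. Libraries were scaled on their own counts, so each fold change is relative to the other genes. A change shared by all genes would not appear in it. The 2 control and 2 auxin libraries did not overlap in CPM for any of the 8 genes, which was also true of 91.0% of all genes tested.

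EGFR, the receptor shared by the 4 ligands, was at 894 and 718 CPM in the controls and at 150 and 122 CPM after auxin. Both auxin libraries lay below both controls, at a level 5.94-fold lower (log2 fold change -2.57, SE 0.23, edgeR adjusted p = 0.00421). MET was at 409 and 361 CPM in the controls and 147 and 122 after auxin (log2 fold change -1.51, SE 0.19, adjusted p = 0.00575), again without overlap. ERBB2, the preferred partner of the other ERBB receptors, went from 331 and 262 CPM to 122 and 93.2 (log2 fold change -1.46, SE 0.23, adjusted p = 0.00926). ERBB3 was at 271 and 202 CPM in the controls and at 185 and 123 after auxin, and the nearest libraries of the 2 groups lay closer to each other than the controls did (log2 fold change -0.62, SE 0.28, 95% interval -1.34 to 0.10, adjusted p = 0.0995).

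Of the ligands, AREG was at 227 and 246 CPM in the controls and at 52.5 and 38.01 after auxin. This was a 5.23-fold lower level (log2 fold change -2.39, SE 0.22, edgeR adjusted p = 0.00421). TGFA went from 362 and 324 CPM to 71.9 and 70.8, with the smallest standard error of the 6 called genes (log2 fold change -2.26, SE 0.16, adjusted p = 0.00421). EREG, at 744 and 890 CPM in the controls, was at 376 and 283 after auxin (log2 fold change -1.31, SE 0.23, adjusted p = 0.0129). HBEGF, an immediate-early type of ligand gene with little nascent RNA here, was at 11.7 and 11.3 CPM in the controls and 11.9 in both auxin libraries (log2 fold change 0.05, SE 0.25, 95% interval -0.61 to 0.71, adjusted p = 0.871).

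The background rose in the same libraries in which these genes fell, and its part in each value differed between the genes. Read density in the 2 auxin libraries was 2.80 and 1.59 times that of silent genes at EGFR, 2.74 and 1.88 times at TGFA, 3.04 and 2.13 times at HBEGF and 4.11 and 2.39 times at MET. It was 10.6 and 5.66 times at ERBB2, 18.7 and 9.44 times at AREG, 27.7 and 12.9 times at ERBB3 and 56.1 and 29.4 times at EREG. In the controls every member but HBEGF (33.7 and 8.64 times) was at least 30.1 times above it.

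**Figure D2:**
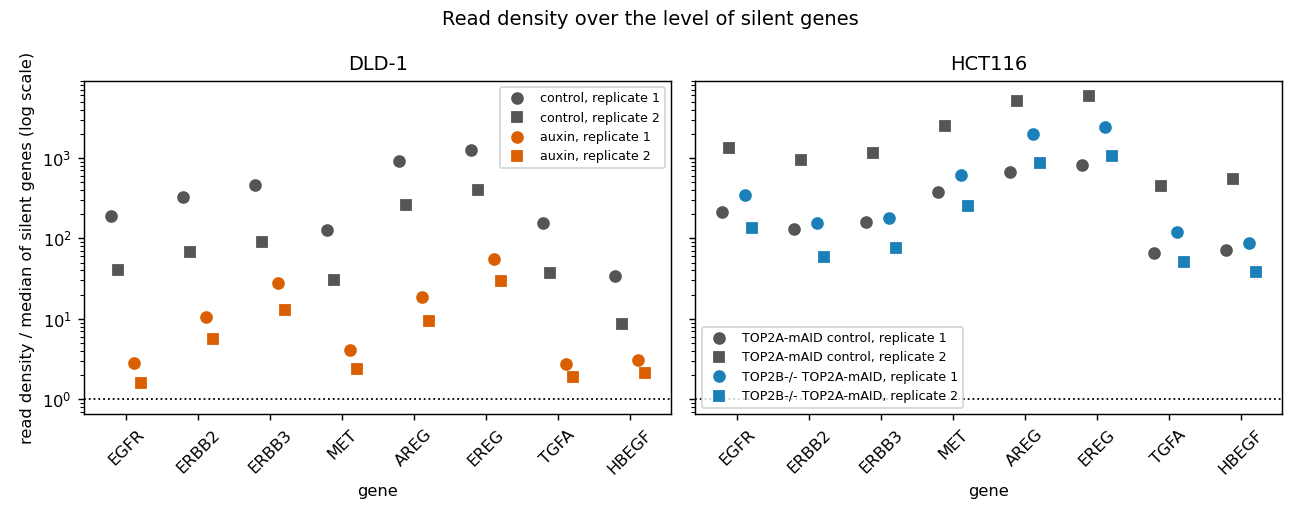
Read density of the 8 genes divided by the median density of silent genes in the same library, on a log axis, with the dotted line at 1 marking the density of silent genes. After auxin, EGFR, TGFA, HBEGF and MET lie between 1.59 and 4.11, while EREG lies at 29.4 and 56.1.

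With the background density subtracted from all counts, 8580 of 14355 genes tested (59.8%) were called, 32.1% lower and 27.7% higher. EGFR (log2 fold change -2.24, edgeR adjusted p = 0.00369), TGFA (-1.78), AREG (-1.20) and MET (-0.75) were then still called lower. ERBB2 (-0.34, adjusted p = 0.0606) and EREG (-0.04, adjusted p = 0.858) were no longer called. ERBB3 turned in direction and was called higher (0.61, adjusted p = 0.0223), and HBEGF had a log2 fold change of 0.75 (adjusted p = 0.0654). These values are relative to the other genes and do not show that the RNA of ERBB3 or HBEGF rose in amount. ERBB3 had 13161 and 6187 reads in the controls and 3179 and 1698 in the auxin libraries, which were less deep. Under scaling by library totals alone, the median of all genes moved to 0.57 and the share of calls that were higher from 47.9% to 69.1%. There 62.0% of all genes were called, 19.2% lower and 42.8% higher, and 5 of the 8 genes, all lower. ERBB3 was at 0.02 and EREG lost its call (-0.68, edgeR adjusted p = 0.0504). The call of ERBB2 was lost as well when either auxin library was left out, with adjusted p-values of 0.0591 and 0.0633, and so was that of EREG (0.0531 and 0.0609).

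**Figure D3:**
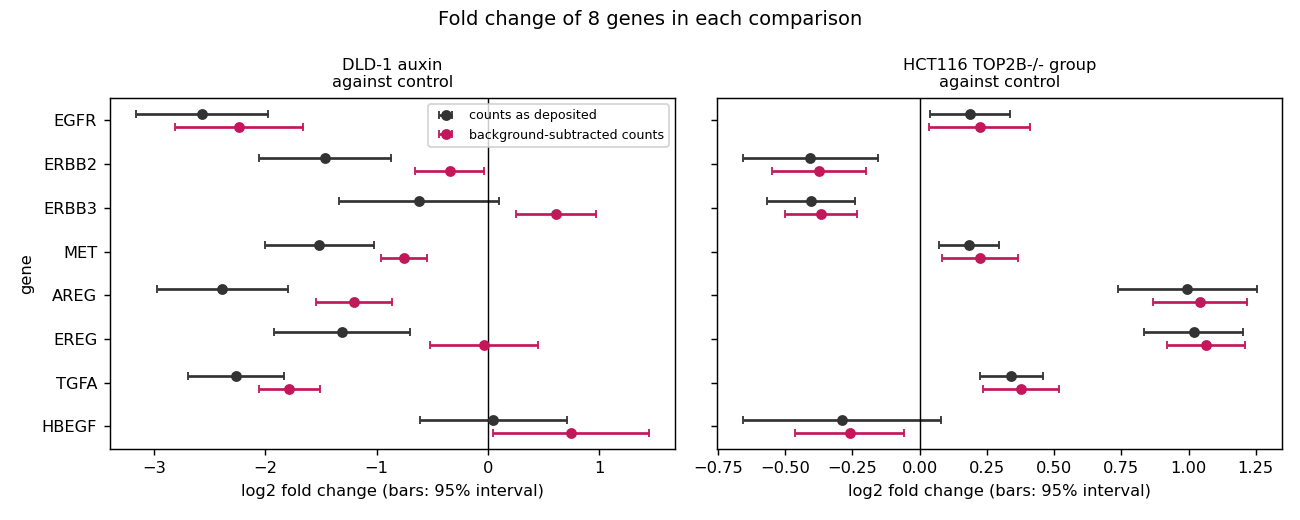
Log2 fold change of each gene with its 95% interval in DLD-1 (left) and HCT116 (right; the axes differ), from the deposited counts (black) and from background-subtracted counts (magenta). In DLD-1 the ERBB3 value moves from -0.62 to 0.61 and the EREG value from -1.31 to -0.04, while in HCT116 both sets of values stay within each other's intervals.

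Ratios between members of the same library do not depend on scaling. AREG per kb was 0.693 times EREG in the DLD-1 controls and 0.326 times EREG after auxin, with log2 ratios of -0.46 and -0.60 against -1.59 and -1.64. ERBB3 stood at 1.37 times ERBB2 in the controls and 2.44 times after auxin. MET changed from 0.717 to 1.49 times EGFR and ERBB2 from 1.71 to 3.67 times EGFR. HBEGF had the largest shift, from 0.226 to 1.12 times TGFA. These shifts were larger than the differences between replicates, and they include the background reads described above.

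In HCT116 cells, the 3 ligand genes AREG, EREG and TGFA were higher in the TOP2B-/- group than in the TOP2A-mAID controls. None of the 4 receptors was called by edgeR, although all 4 had an unadjusted p under 0.05. Such a p was found for 3492 of 15273 genes tested. Calls were rare in this comparison. They made up 3.41% of 15273 genes tested (1.75% higher, 1.66% lower) and 3 of the 8 genes, all higher. AREG and EREG were each close to a doubling, whereas the change in TGFA was smaller. The 2 groups did not overlap in CPM for any of the 8 genes, against 55.3% of all genes tested. The median log2 fold change was 0.19 for the 8 genes and 0.03 over all genes.

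AREG was at 103 and 121 CPM in the controls and at 220 and 226 CPM in the TOP2B-/- libraries. All values of the TOP2B-/- group lay above the controls, 1.99-fold higher on average (log2 fold change 1.00, SE 0.09, edgeR adjusted p = 0.0307). EREG was at 298 and 331 CPM in the controls and 629 and 646 in the TOP2B-/- libraries, a 2.03-fold higher level (log2 fold change 1.02, SE 0.07, adjusted p = 0.0254). TGFA was at 95.1 and 98.6 CPM in the controls and 123 in both TOP2B-/- libraries (log2 fold change 0.34, SE 0.04, adjusted p = 0.0424). For these genes the spread within each group was small beside the distance between groups. Over all genes tested the libraries did not separate in this way. Correlations of log2 CPM were 0.956 between the controls, 0.988 between the TOP2B-/- libraries and 0.924 to 0.990 between libraries of different groups. HBEGF, at 15.1 and 17.96 CPM in the controls, was at 13.4 and 13.7 in the TOP2B-/- libraries (log2 fold change -0.29, 95% interval -0.66 to 0.08, adjusted p = 0.299), so its value had the opposite sign to the other ligands.

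The receptors had smaller differences. EGFR was at 619 and 596 CPM in the controls and 716 and 667 in the TOP2B-/- libraries (log2 fold change 0.19, 95% interval 0.04 to 0.34, edgeR adjusted p = 0.156), and MET at 737 and 748 against 859 and 829 (0.19, 95% interval 0.07 to 0.30, adjusted p = 0.102). ERBB2 was at 81.5 and 91.8 CPM in the controls and 68.9 and 61.9 in the TOP2B-/- libraries (-0.41, 95% interval -0.66 to -0.16, adjusted p = 0.105). ERBB3 was at 59.0 and 64.0 against 46.6 and 46.5 (-0.40, 95% interval -0.57 to -0.24, adjusted p = 0.0557). EGFR and MET thus had values above 0 and ERBB2 and ERBB3 values below 0, and no receptor passed the test. Of 5 ratios between members, 3 were close to equal in the groups. MET per kb was 1.83 times EGFR in both groups, ERBB3 was 1.22 times ERBB2 in the controls and 1.23 times in the TOP2B-/- group, and AREG was 0.846 and 0.834 times EREG. The other 2 moved by more than the difference between replicates, ERBB2 from 0.662 to 0.439 times EGFR and HBEGF from 1.14 to 0.741 times TGFA.

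Background was low at these genes, since every member was at least 38.1 times above silent genes in all 4 HCT116 libraries. With background subtracted, where 16.9% of 13573 genes were called (8.36% lower, 8.50% higher), the 3 ligands kept their calls and ERBB2 (-0.37, edgeR adjusted p = 0.027) and ERBB3 (-0.37, adjusted p = 0.015) were called lower as well. By DESeq2, 15.3% of all genes (8.76% lower, 6.52% higher) and 6 of the 8 genes were called, with MET higher in addition to the ligands and ERBB2 and ERBB3 lower. The calls rested on both TOP2B-/- libraries. Without replicate 1 of that group the log2 fold changes of AREG, EREG and TGFA were 0.98, 1.00 and 0.30, and without replicate 2 they were 0.97, 1.00 and 0.34, and 0 of the 8 genes and 0 of all genes tested were called by edgeR in either case, with 5 and 6 of the 8 genes at an unadjusted p under 0.05. The epithelial marker CDH1 was called lower in the TOP2B-/- libraries (62.4 and 61.1 against 95.9 and 103 CPM), and its relation to the ligands was not tested.

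Some genes around AREG besides EREG also had a higher level in HCT116. Within 500 kb of AREG, 8 of the 11 gene models were tested in HCT116, AREG and EREG included. Of these, 7 had a log2 fold change above 0 and 4 were called higher, where 1.75% of all genes tested were called higher. The 4 were EREG, AREG, BTC (betacellulin, another EGFR ligand) and MTHFD2L (a mitochondrial folate enzyme). BTC, 291229 bp beyond AREG on the opposite strand, was at 4.49 and 4.43 CPM in the controls and 12.0 and 13.2 in the TOP2B-/- libraries (log2 fold change 1.495, SE 0.14, edgeR adjusted p = 0.0304). MTHFD2L rose less, from 94.4 and 93.3 CPM to 123 and 122 (0.38, SE 0.04, adjusted p = 0.0324). PARM1, whose start lies 488 kb beyond that of AREG, was at 13.2 and 11.8 CPM against 22.1 and 24.5 (0.90, adjusted p = 0.0501), just outside the threshold. EPGN (0.47, adjusted p = 0.497), which lies between MTHFD2L and EREG, and the chemokine genes CXCL2 (0.31, adjusted p = 0.693) and CXCL3 (-0.45, adjusted p = 0.719) were at or under 1.59 CPM and were not called. The median over the 8 models was 0.68, beside 0.17 over 597 genes of chromosome 4. The interval was placed around AREG, and AREG and EREG count in that median, so it is no separate measure of the locus.

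In DLD-1 the same interval did not move one way. Of its 11 models, AREG, EREG, MTHFD2L (log2 fold change -0.99, edgeR adjusted p = 0.0111) and PARM1 (-1.62, adjusted p = 0.00488) were called lower, and CXCL5 (1.56, adjusted p = 0.00535) and EPGN (1.44, adjusted p = 0.0392) higher. BTC was at 38.4 and 40.5 CPM in the controls and 44.0 and 35.8 after auxin (0.02, adjusted p = 0.946). EPGN read 3.41 and 1.63 times the density of silent genes in the auxin libraries and BTC 3.20 and 1.82 times.

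**Figure D4:**
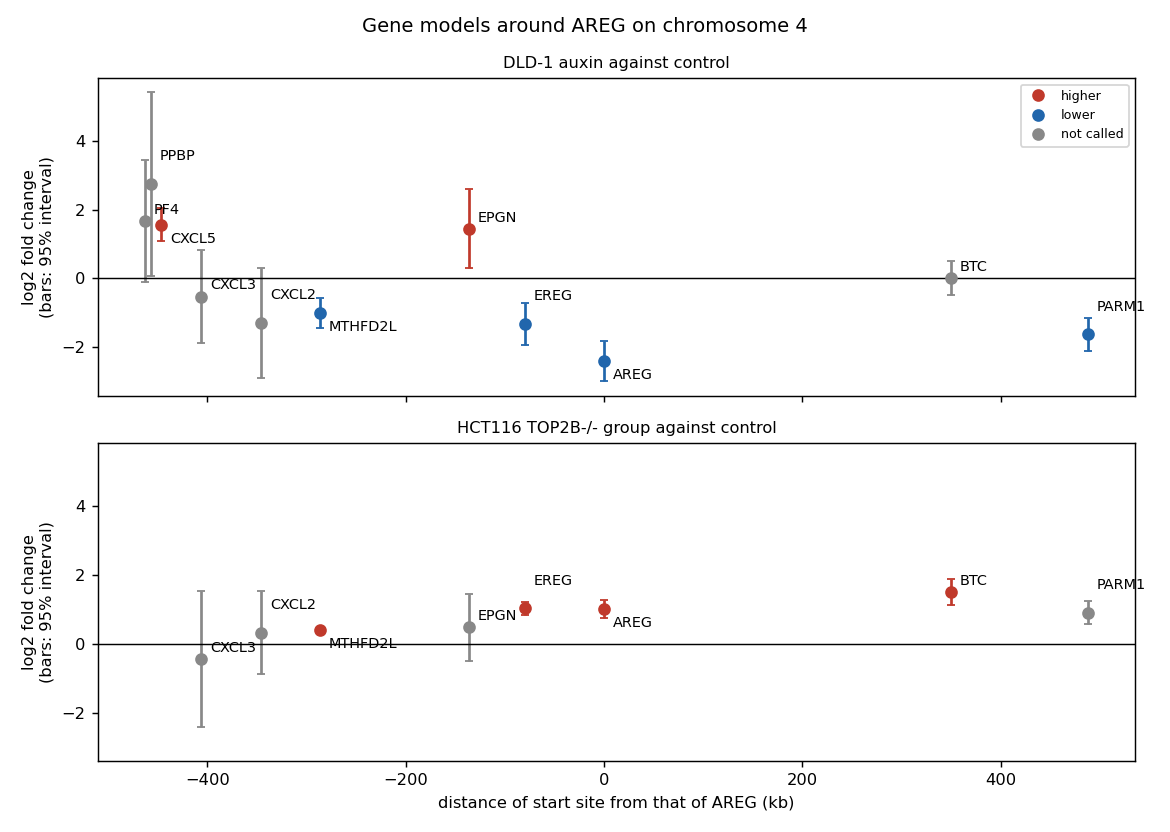
Log2 fold change with its 95% interval of the tested gene models around AREG, against the distance of their start sites from that of AREG in kb, for DLD-1 (top) and HCT116 (bottom). Red marks genes called higher, blue lower and grey not called. In HCT116 the called genes MTHFD2L, EREG, AREG and BTC all lie above 0, whereas in DLD-1 the called genes point both ways.

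Around all 8 members, 28 other genes were among the nearest 2 tested models on either side. In DLD-1, 8 of these were called lower, 8 higher and 12 were not called, where 35.0% and 32.2% of all genes tested were called lower and higher. Among them, GRB7, an adaptor gene 9247 bp from ERBB2, fell by 1.84 on the log2 scale, and PGAP3, which starts 14 bp from ERBB2 on the other strand, fell by 1.38. After auxin GRB7 read 2.88 and 1.41 times background and PGAP3 2.42 and 1.34 times. With background subtracted GRB7 was still called lower (-1.57, edgeR adjusted p = 0.0437) and PGAP3 was not called (-1.29, adjusted p = 0.0548). In HCT116, BTC and MTHFD2L were the 2 called, and the neighbours of ERBB2 were not called (GRB7 -0.79, edgeR adjusted p = 0.0874; MIEN1 -0.57, adjusted p = 0.14). The sources used here do not say whether the counting used strand, so reads of ERBB2 and PGAP3 at their shared edge could not be kept apart.

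The other genes of the family and the pathway were read from 7 lists. Among 8 other ERBB receptors and ligands, 7 were called higher in DLD-1 after auxin, with a median log2 fold change of 2.40. Over all genes tested in DLD-1, 67.3% were called, 35.0% lower and 32.2% higher, and the counts of each list stand against these shares. With background subtracted the shares were 32.1% lower and 27.7% higher, with a median of -0.16. The receptor ERBB4 was at 28.7 and 113 CPM in the controls and 327 and 484 after auxin (2.52, edgeR adjusted p = 0.0322), and its density was 0.98 and 1.02 times that of silent genes in the controls and 0.99 and 1.02 times after auxin. The neuregulin genes NRG1 (2.48), NRG2 (2.60), NRG3 (2.46) and NRG4 (2.35) and EGF (1.97) were called as well. Their densities were from 1.17 to 4.30 times that of silent genes in the controls and from 1.09 to 1.83 times in the auxin libraries. For none of them did an auxin library exceed the higher control in this density. EPGN, the seventh, is described above. With background subtracted 7 were called higher as well (median 3.26), among them NRG2 (4.07, adjusted p = 0.00387) and BTC (adjusted p = 0.0363) but not ERBB4 (adjusted p = 0.33). Without either auxin library, 0 of the 8 were called by edgeR. In HCT116, BTC was the 1 gene of this list that was called. NRG1 read 1.46 and 1.30 times background in the controls and 2.30 and 1.51 times in the TOP2B-/- libraries, and ERBB4 was below background in all 4.

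The MET arm held 13 genes for the ligand, its activation and co-receptors, of which 5 fell and 3 were called higher in DLD-1 (median log2 fold change -0.36). With background subtracted, 3 of 10 tested were called lower and 3 higher, and the median was 0.06. These 3 higher genes had not been called from the deposited counts, and the 3 called higher there were not tested after subtraction. PLXNB1 (log2 fold change -1.86), a semaphorin receptor that associates with MET, MST1R (-1.78), the closest relative of MET, and RANBP9 (-1.74), a MET-binding scaffold, fell with edgeR adjusted p-values of 0.00762, 0.0124 and 0.00421. The ligand gene HGF was called higher (2.50) at 0.78 and 0.81 times the density of silent genes in the controls and 0.82 and 0.76 times after auxin, so it was at background throughout. HGFAC (4.30) and HPN (1.85), encoding proteases that activate HGF, were at or under 7.56 CPM. HPN read 1.595 and 1.00 times the density of silent genes in the controls and 0.69 and 0.71 times after auxin. HGFAC read 0.86 and 0.27 times this density in the controls and 2.03 and 0.92 times after auxin. In HCT116 none of the 13 was called by edgeR (7 at an unadjusted p under 0.05, 5 called by DESeq2), and HGF had the largest difference (1.91, adjusted p = 0.513) with at most 1.62 CPM. Of all 15273 genes tested there, 3492 had an unadjusted p under 0.05, and DESeq2 called 15.3% of the genes it tested.

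Downstream of the receptors, most calls in DLD-1 were lower. Of 20 adaptors and genes of the RAS-ERK cascade, 14 fell and 0 rose (median log2 fold change -1.01), among them the adaptor GAB1 (-2.63) and the kinase ARAF (-2.31), both at 1.43 times background or less after auxin. With background subtracted 9 of the 20 were called lower and 2 higher, with a median of -0.48. Of 9 tested genes of the PI3K-AKT arm, 6 fell (median -1.19), among them PIK3CA (-2.11), RICTOR (-1.95) and PIK3CB (-1.82). With background subtracted 4 were called lower and 1 higher (median -1.56). PIK3CA, at 1.30 and 0.96 times background after auxin, was then not called (edgeR adjusted p = 0.0701). PIK3CB was at 1.10 and 1.00 times. Of 17 genes for ligand shedding and receptor turnover, 10 fell and 1 was called higher (median -0.91), against 8 lower and 3 higher of 16 tested with background subtracted (median -0.37). ERRFI1, a feedback inhibitor of EGFR, was at 356 and 345 CPM in the controls and 50.6 and 32.9 after auxin (-3.07, edgeR adjusted p = 0.00421). LRIG2 (-1.98) and LRIG3 (-2.21), of a family of membrane regulators of ERBB receptors, fell too, LRIG3 to 0.86 and 0.89 times background. LRIG1 was called higher (2.37) at 0.69 to 0.81 times background in all 4 libraries, and was not tested with background subtracted.

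Of 18 feedback and output genes of ERK, 13 fell in DLD-1 and none was called higher (median -1.54). With background subtracted 9 were called lower and 1, the cyclin gene CCND1, higher (0.92, edgeR adjusted p = 0.0034), with a median of -1.04. MYC went from 66.2 and 60.1 CPM to 3.77 and 2.18 (log2 fold change -4.40, edgeR adjusted p = 0.00421), where it was at 2.48 and 1.00 times background. HMGA2 went from 979 and 872 to 110 and 90.6 (-3.20), and SPRY4, an inhibitor of receptor tyrosine kinase signalling, from 39.1 and 33.4 to 8.996 and 7.27 (-2.15). Among 32 other receptor tyrosine kinases, 16 were called higher and 8 lower. ROS1 (3.31), ROR2 (2.79) and RET (2.69), which had the largest positive values, were at 0.67 to 2.22 times background after auxin, while EPHB3 (-2.88), EPHA1 (-2.10) and RYK (-1.64) fell. EPHB3 was then at 1.05 and 1.07 times background and EPHA1 at 0.98 and 0.32 times. With background subtracted, the higher calls of this list dropped to 9 and the lower calls were 12. The calls of these lists shrank when an auxin library was left out, for the ERK outputs to 8 without replicate 1 and 7 without replicate 2, and for the other receptor tyrosine kinases to 2 and 4.

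In HCT116 few genes of these lists were called. PTPN1, a phosphatase that acts on receptor tyrosine kinases, fell from 294 and 319 CPM to 185 and 181 (log2 fold change -0.74, edgeR adjusted p = 0.0254). Of the ERK outputs, DUSP5, a phosphatase that acts on ERK, fell from 143 and 166 CPM to 88.9 and 90.2 (-0.79, adjusted p = 0.0374) and HMGA2 rose from 2143 and 2001 to 2955 and 2841 (0.48, adjusted p = 0.0373). ROR1 was the 1 called among the 32 other receptor tyrosine kinases (0.68, adjusted p = 0.0459). None of the 20 adaptor and cascade genes and none of the 9 tested PI3K-AKT genes passed in edgeR (6 and 5 at an unadjusted p under 0.05, 3 and 1 called by DESeq2), and the largest values were those of GRB7 (-0.79, adjusted p = 0.0874) and PIK3R1 (0.58, adjusted p = 0.0557). Over all genes, 3492 of 15273 had an unadjusted p under 0.05 and 15.3% were called by DESeq2. Medians of these 2 lists were 0.03 and 0.07, beside 0.03 over all genes.

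**Figure D5:**
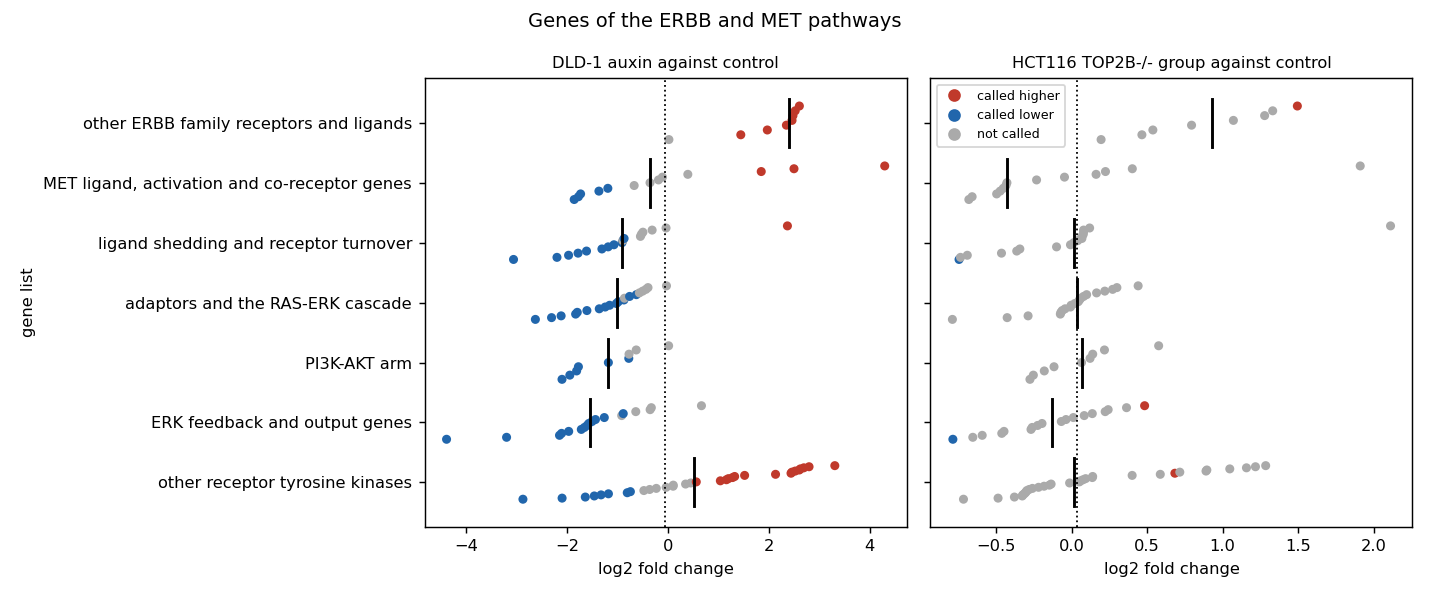
Log2 fold change of every tested gene of the 7 pathway lists in DLD-1 (left) and HCT116 (right; the axes differ). Red points were called higher, blue lower and grey not called, thick lines are list medians and the dotted line is the median over all genes tested (-0.06 and 0.03). In DLD-1 the medians of the RAS-ERK, PI3K-AKT and ERK output lists lie at -1.01, -1.19 and -1.54, while most points in HCT116 are grey.

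Over the 8 libraries, which share the 2 lines and their treatments and are therefore not independent, log2 CPM of some members ran together. Pearson's r was 0.92 between EGFR and AREG, 0.91 between ERBB2 and ERBB3, 0.83 between EGFR and MET and 0.80 between AREG and EREG, and was negative between MET and ERBB3 (-0.80) and between HBEGF and TGFA (-0.84). Among 15205 genes tested in both lines, the genes whose pattern was most like that of a member were CEP192 and TRAF3 for EGFR, ADGRE5 and ABHD4 for ERBB2, SORL1 and RNASET2 for ERBB3, and NAA25 and TLDC1 for MET. For the ligands they were RIPK1 and CLDND1 for AREG, POGLUT1 and SNX6 for EREG, MFAP3L and CRYBG3 for TGFA, and ATG9B and MAFF for HBEGF. These correlations ran from 0.977 to 0.999 and describe these 8 libraries only.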

How the data were processed

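Nascent RNA was analysed in 8 libraries, grouped by their labels into 4 groups of 2. Raw counts of reads per gene, as the authors deposited them, covered 18638 RefSeq models in 1 table per line, with a counted length for each model. STAR, DESeq2 and hg38 are named in the submitters' processing notes without versions, and the sources used here do not name the counter or its use of strand. The paper at hand reports a different experiment and gave no part of the design. The authors' tables of changed genes (log2 fold changes, p-values and normalized values) were not used. 0 columns of per-sample values were left unmapped. Model starts were raised by 1 to 1-based coordinates.

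The 4 libraries of a line were fitted separately with edgeR 4.0.16 in R 4.3.3 (filterByExpr, TMM, quasi-likelihood test, two-sided, 2 residual degrees of freedom, Benjamini-Hochberg adjustment over all genes tested at 0.05). CPM used TMM-scaled totals. Standard errors were taken from the F statistic, and intervals are at 95%. Background was the median count per base of the 20% of models of at least 5000 bp with the fewest reads per kb in the controls of the other line, within chromosomes and without chromosome Y. Subtraction had a floor of 0. The script was tested on simulated data. Alternatives were DESeq2 1.42.0, other scalings and count filters, background subtraction, the replicate number as a block, 1 fit of all 8 libraries and leaving out each library. A library left alone in its group was assumed to have the spread of the other group. The genes named were the members, all other ERBB receptors and ligands, at most 3 called genes per list and direction with the largest changes (or the largest value where none was called), the nearest 2 tested models on each side and the 2 genes most correlated in log2(CPM + 1). 1 gene that this rule names is not reported here. Markers named beyond this, CCND1, CXCL5, CXCL2 and CXCL3 were chosen after their values were seen. The members, lists and background setting were chosen with earlier results of these data known, so none is independent of them.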

Additional observations from a re-analysis of the deposited data

How the results depend on the processing

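In DLD-1, 11855 genes and 6 of the 8 members were called. Leaving out 1 library gave 2393 to 12732 genes and 4 to 6 members. The low counts were those without auxin replicate 1 (2393) or auxin replicate 2 (3165), where ERBB2 and EREG lost their calls. ERBB3 reversed to 0.0173 under library totals alone and to 0.61 with background-subtracted counts. EGFR, MET, AREG and TGFA kept direction and call under all 12 alternatives each. Over the members, 86 of 96 values kept direction and side of the threshold. In HCT116, 521 genes and 3 members were called by edgeR, against 1849 and 6 by DESeq2, 1221 and 5 for genes averaging 5 CPM or more, 2289 and 5 with background-subtracted counts, and 5 and 0 with all 8 libraries in 1 fit (1196 genes and 2 members at an unadjusted p under 0.05). Leaving out 1 library gave 0 to 2519 genes and 0 to 5 members. The count was 0 without TOP2B-/- replicate 1 (2266 at an unadjusted p under 0.05) or replicate 2 (1286), and 2519 without control replicate 1. Of 104 member values 77 kept direction and side of the threshold, 14 lost the call, 13 gained it and 0 reversed. The cause of these changes was not tested. Replicate numbers are shared between groups, but nothing in the labels pairs them. Deviations of same-numbered libraries correlated at 0.56 in DLD-1 and -0.82 in HCT116. The replicate block gave 12963 genes and 7 members in DLD-1 (ERBB3 was added at -0.63), and 0 genes and 0 members in HCT116 by edgeR (2177 and 7 at an unadjusted p under 0.05). The crossed replicate block, chosen after seeing the data, gave 1808 genes and 5 members. Densities at the members were 1.54 times background or more when the lowest 10% or 30% of models were taken as silent. Depth limits HBEGF most, with 164 to 637 reads per library.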
